A study of Mus musculus with 6 samples.

Results

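The levels of 10 genes of iron handling were compared between livers of WT and Asgr1-/- mice: Hamp, Hamp2, Tfrc, Tfr2, Hfe, Trf, Fth1, Ftl1, Slc40a1 and Bmp6. They were found by gene symbol among the 55401 genes of the deposited RNA-Seq table, and each symbol matched 1 gene. Livers came from 3 WT and 3 Asgr1-/- male mice on a C57/BL6 background, aged 13 weeks and fasted overnight, with 1 library per mouse. The knockout was made with CRISPR/Cas9 and a pair of guide RNAs injected into zygotes. Founders were bred to mice of the same background, and heterozygotes were then crossed to give littermates. The deletion is present in every cell of the animal, so the comparison is not restricted to hepatocytes, the liver cells that normally carry the asialoglycoprotein receptor.

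Whole-liver RNA holds several cell types, and fewer cells of a type cannot be told apart from less RNA per cell. Library totals were between 19842637 and 22080809 counts. Asgr1 had 11716 to 15894 counts in WT livers and 36 to 62 counts in Asgr1-/- livers, so each library matched its label. The 5 hepatocyte markers (albumin and other plasma protein genes) summed to between 88264 and 95866 CPM in WT and between 78812 and 83250 CPM in Asgr1-/- livers, where CPM are counts scaled to a common library size with TMM (trimmed mean of M values) factors. These sums did not overlap between genotypes, but most of each sum was Alb, at 61065 to 70896 CPM in WT and 49640 to 58162 CPM in Asgr1-/- livers. Of the 5 markers, 2 did not overlap, both lower, where 10.9% of all tested genes were lower in this way. The log2 fold change was negative for 4 and positive for 1 (Apoa1, 0.050). The part of these markers in the results for hepatocyte genes such as Hamp, Tfr2 and Trf was not tested. The 12 Kupffer cell markers varied far more within WT, from 86.3 CPM in liver 1 to 776 CPM in liver 3, with Asgr1-/- livers between 194 and 301 CPM.

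Hepcidin, the peptide made from Hamp in hepatocytes, binds the iron exporter ferroportin (Slc40a1) and causes its degradation, so that less iron enters plasma from macrophages, hepatocytes and the gut. Hepatocytes raise Hamp when BMP6, secreted mainly by liver sinusoidal endothelial cells, acts through BMP receptors with the co-receptor hemojuvelin and phosphorylates SMAD proteins. HFE and transferrin receptor 2 (Tfr2) report iron-loaded transferrin to the same pathway, and interleukin-6 raises Hamp through STAT3. Inside cells, iron regulatory proteins bind iron-responsive elements in mRNAs when iron is scarce, which blocks translation of ferritin (Fth1, Ftl1) and ferroportin and stabilises the mRNA of the transferrin receptor (Tfrc).

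Hamp and its neighbouring copy Hamp2 lie on the minus strand of chromosome 7 in GRCm38, at chr7:30942368-30944032 and chr7:30922372-30924681, 17687 bases apart. Their proximal promoters are shown because these are the sequences through which BMP-SMAD and STAT3 signals are known to reach Hamp. The RefSeq promoter windows (GRCm38.p6, 250 bases before to 50 after the start) aligned over 297 bases with 92.9% identity. The stretches printed are 101 bases each, chr7:30944078-30944178 for Hamp and chr7:30924227-30924327 for Hamp2, both minus strand. Capitals mark the position of GGCGCC, the core of the BMP-responsive element, and of TTCNNNGAA, the spaced palindrome that STAT proteins bind.
Hamp: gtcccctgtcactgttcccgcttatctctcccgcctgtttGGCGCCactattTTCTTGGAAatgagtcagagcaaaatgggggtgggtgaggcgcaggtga
Hamp2: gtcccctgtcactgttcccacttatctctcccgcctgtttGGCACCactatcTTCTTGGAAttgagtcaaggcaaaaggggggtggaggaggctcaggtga
The 2 stretches differ at 10 positions, and 1 of them is inside the first capitalised block. It is G44A, counted from 1 at the 5′ end of the printed stretch with the Hamp base first, so the letters GGCGCC are in the Hamp window and not in the Hamp2 window. TTCNNNGAA starts 97 bases before the start of Hamp and 94 bases before that of Hamp2. Both motifs read the same on either strand and do not overlap each other here. GGCGCC was present in 11.9% and TTCNNNGAA in 8.3% of 32851 RefSeq promoter windows of the same length, so a match alone is common. Promoter windows were found for 8 of the 10 genes, all but Trf and Slc40a1, and among the others only 1 of the windows of Tfrc held GGCGCC.

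Iron-responsive elements were searched in GENCODE M21 transcripts as a C, 5 bases, the 6-base loop CAGTGN and 5 more bases, with the bases on either side of the loop able to pair (G with T allowed). They are shown because iron regulatory proteins act on these mRNAs through them. Each is given with 6 bases of flank on either side, 29 bases in all, with the loop in capitals.
Fth1: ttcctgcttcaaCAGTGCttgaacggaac
Ftl1: gtcttgcttcaaCAGTGTttgaacggaac
Slc40a1: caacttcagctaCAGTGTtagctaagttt
Tfrc element 1: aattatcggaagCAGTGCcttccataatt
Tfrc element 2: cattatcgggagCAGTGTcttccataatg
Tfrc element 3: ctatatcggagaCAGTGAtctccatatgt
Tfrc element 4: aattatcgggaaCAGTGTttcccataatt
Fth1 (chr19:9982732-9982760, plus strand), Ftl1 (chr7:45459779-45459807, minus strand) and Slc40a1 (chr1:45925465-45925493, minus strand) had 1 element each, in the 5′ UTR. Tfrc had 4 on the plus strand of chromosome 16, all in the 3′ UTR, at chr16:32631219-32631247, chr16:32631598-32631626, chr16:32631663-32631691 and chr16:32631710-32631738. The coding transcripts of Hamp, Hamp2, Tfr2, Hfe, Trf and Bmp6 held no match to this pattern, and 1.34% of 21901 protein-coding genes held one.

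Between genotypes, 0 of the 10 genes passed the test. All 10 had a mean FPKM (reads per gene corrected for exon length and library size) of at least 1 and were tested with edgeR's quasi-likelihood test on counts, adjusted by the Benjamini-Hochberg method over 10167 genes. Calls required an adjusted p under 0.05 together with a fold change above 1.5, and 0.295% of tested genes were called. The count among the 10 genes was 0 by edgeR and by limma and 1 by DESeq2, which called Hamp2. At an unadjusted p under 0.05, 1 gene was lower (Hamp2), where 8.2% of all tested genes were lower at this level. In none of the 10 were the livers of the 2 genotypes fully apart, whereas 10.9% of tested genes were higher and 10.9% lower in all Asgr1-/- livers than in all WT livers. The log2 fold change was negative for 7 genes and positive for 3, with a median of -0.18 against -0.022 over all tested genes. The exact two-sided permutation test of 3 against 3 mice cannot give a p below 0.1, and for these genes it gave p between 0.2 and 0.9.

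**Figure D1:**
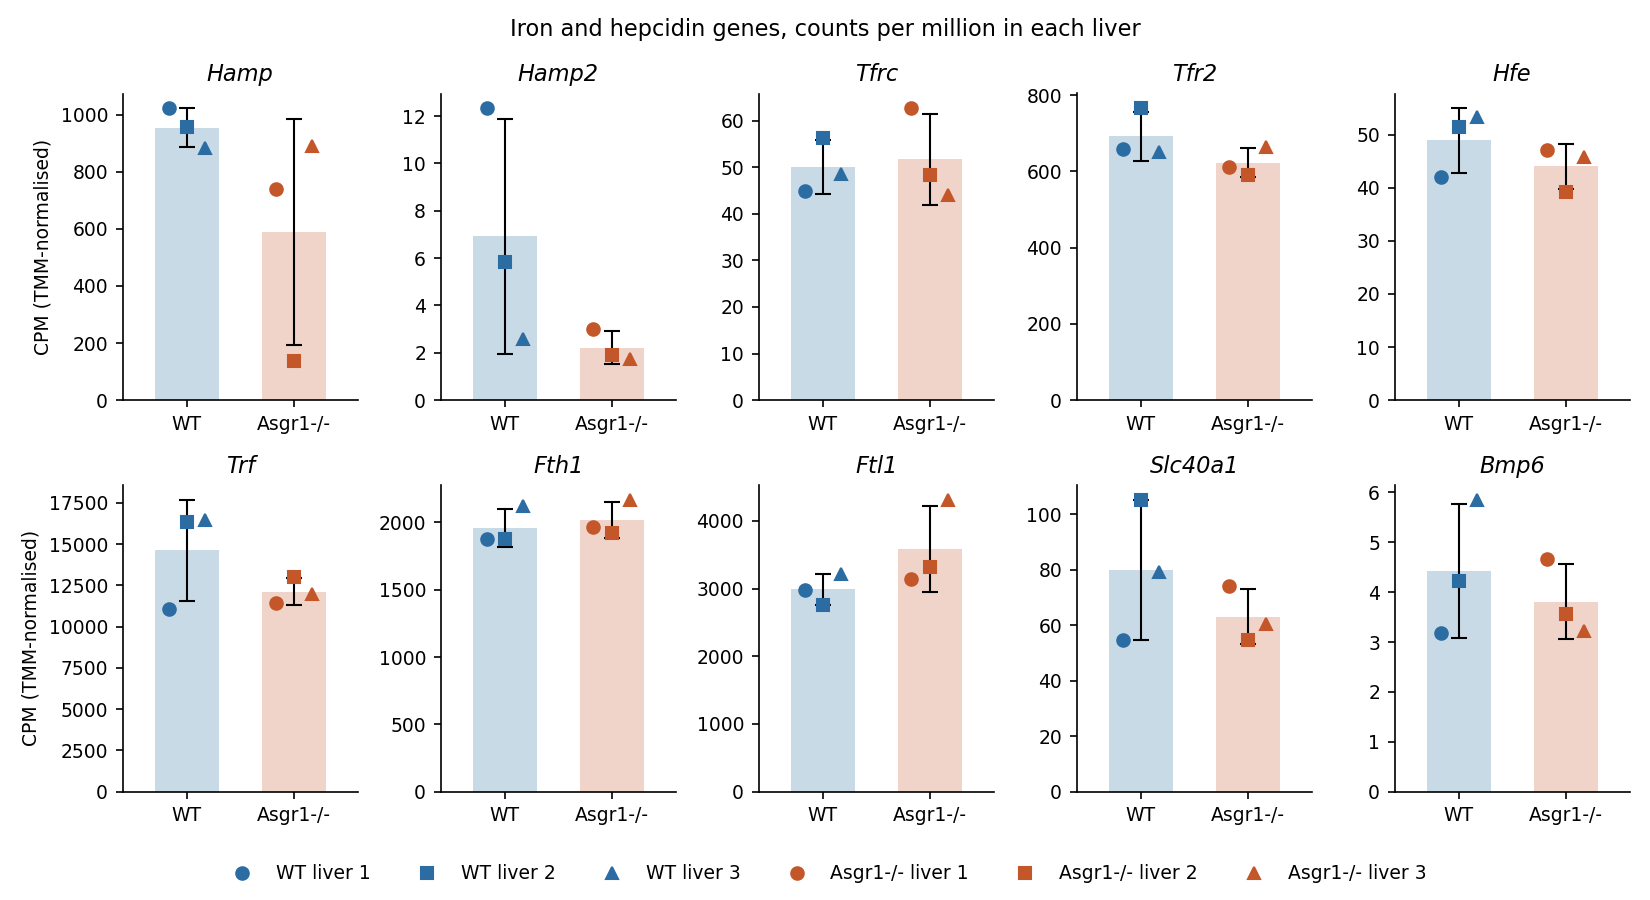
CPM (TMM-normalised, linear axes from 0) of the 10 genes in each liver, with bars for the mean and error bars for the SD of 3 livers. Points of WT and Asgr1-/- livers overlap in every panel, and Asgr1-/- liver 2 sits at 139 CPM for Hamp while the other livers lie between 739 and 1022 CPM.

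Hamp (ENSMUSG00000050440), the hepcidin gene, had 1022, 957 and 885 CPM in WT mice, listed here and for every gene in the order of livers 1, 2 and 3 of a group. Its values in Asgr1-/- mice were 739, 139 and 890 CPM. Asgr1-/- liver 2 was far below the rest, 5.33-fold under the next lowest liver, and Asgr1-/- liver 3 was just above WT liver 3, so the groups overlapped. Liver 2 of the Asgr1-/- group had 2764 Hamp counts against 16663 to 19877 in the other 5 livers. The mean was 955 ± 68.5 CPM (SD, n = 3 mice) in WT and 589 ± 397 CPM (SD, n = 3 mice) in Asgr1-/- mice. The log2 fold change was -0.70 (standard error 0.50, 95% interval -1.83 to 0.44, adjusted p = 0.542 from edgeR). Without Asgr1-/- liver 2 it was -0.22, and without Asgr1-/- liver 3 it was -1.11, with adjusted p of 0.592 and 0.576 from edgeR. With no filter on FPKM the adjusted p was 0.015 in edgeR, the 1 of 17 alternatives that called Hamp. It was 0.695 in edgeR with robust estimation and 0.732 in DESeq2. These data leave room for a fall to 0.281-fold or a rise to 1.35-fold.

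Hamp2 (ENSMUSG00000056978), the neighbouring hepcidin copy of the mouse, had 12.3, 5.85 and 2.57 CPM in WT mice. Its values in Asgr1-/- mice were 3.02, 1.91 and 1.73 CPM. WT livers 1 and 2 were above all Asgr1-/- livers, while WT liver 3 was below Asgr1-/- liver 1. On the log2 scale this was -1.63 (standard error 0.50, 95% interval -2.77 to -0.50, adjusted p = 0.182 from edgeR). The adjusted p was 0.021 in DESeq2 and 0.017 in edgeR without WT liver 3, and without WT liver 1 the log2 fold change was -0.92 with an adjusted p of 0.256. The gene rested on 35 to 240 counts per liver.

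Hamp and Hamp2 transcripts were 94.6% identical over 410 aligned bases, with a longest shared run of 87 bases, and the sources used here do not say how reads matching both were counted. The value of Hamp2 is uncertain for that reason. Their levels did not move in parallel, since Hamp exceeded Hamp2 by 118-fold in WT liver 1 and by 730-fold in Asgr1-/- liver 3 as FPKM. In Asgr1-/- liver 2, where Hamp was lowest, the ratio was 104 and Hamp2 lay between the values of Asgr1-/- livers 1 and 3.

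Bmp6 (ENSMUSG00000039004, chr13:38345107-38500302), the ligand, had 3.19, 4.23 and 5.86 CPM in WT mice against 4.66, 3.56 and 3.22 CPM in Asgr1-/- mice. The highest and the lowest value were both in WT livers. The log2 fold change was -0.21 (95% interval -0.84 to 0.42, adjusted p = 0.757 from edgeR), and it was 0.041 without WT liver 3. The gene rested on 62 to 116 counts per liver. Over the 6 livers, log2 Bmp6 correlated with the log2 of the summed CPM of 12 endothelial markers with r = 0.94 and of 12 Kupffer markers with r = 0.90. These are descriptions over points that share library and sample. Endothelial markers summed to between 263 and 576 CPM in WT and between 314 and 426 CPM in Asgr1-/- livers, and none of the 12 was at 0. Their part in the result was not tested.

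Tfr2 (ENSMUSG00000029716, chr5:137569840-137587481), the hepatocyte sensor of iron-loaded transferrin, had 659, 766 and 651 CPM in WT mice and 612, 591 and 665 CPM in Asgr1-/- mice. Only Asgr1-/- liver 3 was within the WT range, and the log2 fold change was -0.15 (95% interval -0.41 to 0.10, adjusted p = 0.552 from edgeR). Hfe (ENSMUSG00000006611, chr13:23702034-23710854), its partner and the gene of classical hemochromatosis in humans, had 42.0, 51.5 and 53.3 CPM in WT mice against 47.1, 39.2 and 45.7 CPM in Asgr1-/- mice. WT liver 1 was below Asgr1-/- livers 1 and 3. Its log2 fold change was also -0.15 (95% interval -0.45 to 0.14, adjusted p = 0.607 from edgeR).

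The wider BMP-SMAD list held 23 genes, of which 18 were tested and 0 called by edgeR. At an unadjusted p under 0.05, 6 were lower and 0 higher, where 8.2% of all tested genes were lower and 7.29% higher at this level. The livers did not overlap between genotypes in 6 tested genes of the list, all lower, where 10.9% of all tested genes were lower in this way. Its median log2 fold change lay at -0.25. The 4 genes with the smallest p were Atoh8, Id1, Id3 and Smad7, all transcribed in response to SMAD signaling. Of the genes upstream of them, Hjv (hemojuvelin) was at -0.26, Tmprss6 (the protease that cleaves hemojuvelin) at -0.17 and Bmp2 (the other endothelial ligand of this pathway) at 0.0035 on the log2 scale, each overlapping between genotypes. Acvr2a, a BMP type II receptor named after its values were seen, was at -0.42 with livers that did not overlap (adjusted p = 0.257 by edgeR). Bmpr2, the other type II receptor of the list, was below the filter on FPKM and not tested, and it too was lower in every Asgr1-/- liver, at 8.86 to 13.5 CPM against 13.6 to 16.3 CPM in WT livers.

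Atoh8, a basic helix-loop-helix factor linked to hepcidin control in mice, had 27.8, 29.5 and 37.7 CPM in WT mice against 12.2, 11.1 and 19.4 CPM in Asgr1-/- mice. Every Asgr1-/- liver was below every WT liver. Atoh8 differed by -1.15 on the log2 scale (standard error 0.22, adjusted p = 0.061 from edgeR). DESeq2 gave an adjusted p of 8.8e-05, edgeR with robust estimation 0.049 and edgeR without WT liver 3 gave 0.041, while edgeR without Asgr1-/- liver 1 gave 0.251, so the call changed with the tool and with the livers used.

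Id1, an inhibitor of DNA binding and a direct BMP target, had 20.9, 14.6 and 17.6 CPM in WT mice against 8.96, 6.17 and 10.9 CPM in Asgr1-/- mice. Id3, of the same family, had 115, 163 and 108 CPM in WT mice against 44.8, 31.8 and 91.1 CPM in Asgr1-/- mice. For both, the groups were apart and Asgr1-/- liver 2 was lowest. The log2 fold changes were -1.03 (adjusted p = 0.080) for Id1 and -1.20 (adjusted p = 0.152) for Id3 in edgeR, and DESeq2 gave adjusted p of 0.0017 for Id1 and 0.192 for Id3.

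Smad7, an inhibitory SMAD that feeds back on the pathway, had 15.5, 14.4 and 12.6 CPM in WT mice against 9.45, 7.97 and 12.3 CPM in Asgr1-/- mice. The groups were apart by a small margin, and the log2 fold change was -0.51 with an adjusted p of 0.228 by edgeR. Smad6, the other inhibitory SMAD, overlapped between genotypes at -0.26 on the log2 scale (adjusted p = 0.637 by edgeR).

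**Figure D2:**
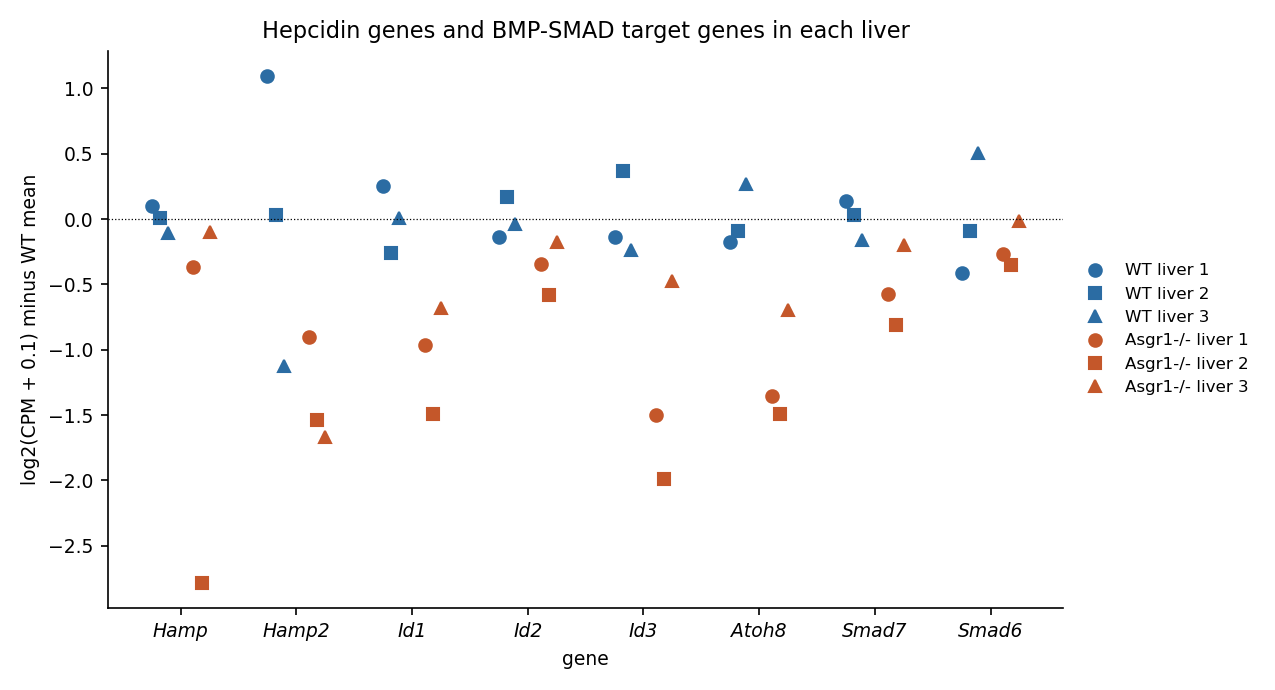
Level of Hamp, Hamp2 and 6 BMP-SMAD target genes in each liver, as log2(CPM + 0.1) minus the mean of the WT livers. Asgr1-/- liver 2 (orange square) is the lowest of the 3 Asgr1-/- livers in Hamp, Id1, Id2, Id3, Atoh8, Smad7 and Smad6, and Asgr1-/- liver 3 (orange triangle) is the highest.

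Within the Asgr1-/- group, the order of the livers in Hamp was liver 3, liver 1 and liver 2 from high to low. The same order held in 6 of 6 target genes (Id1, Id2, Id3, Atoh8, Smad6 and Smad7), a comparison chosen after the values were seen. These 6 are only part of the BMP-SMAD list, and other genes of the list had other orders. Smad9 had 8.69, 3.86 and 7.18 CPM in Asgr1-/- mice, and Bambi, below the filter on FPKM, had 3.68, 4.26 and 4.21 CPM. The order of Hamp held in 17.8% of all tested genes and in 2 of the other 9 iron and hepcidin genes. The 5 tested genes whose log2 CPM followed Hamp most closely over the 6 livers were Golt1b (r = 0.98), Gm29650 (r = 0.98), Bmi1 (r = 0.98), H2az1 (r = 0.98) and Pmvk (r = 0.98). Each had its lowest value in Asgr1-/- liver 2, as with Pmvk (phosphomevalonate kinase), at 26.6 CPM there and between 65.6 and 90.7 CPM in the other livers. The points share libraries with Hamp, and Asgr1-/- liver 2 is the far point in each of these genes.

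The interleukin-6 and STAT3 list held 14 genes, of which 13 were tested and 0 called by edgeR. At an unadjusted p under 0.05, 4 were lower and 1 higher, against 8.2% and 7.29% of all tested genes, and the median log2 fold change lay at -0.37. The higher gene was Cebpb, a transcription factor of the acute phase response named after its values were seen, with 126, 124 and 261 CPM in WT mice and 338, 273 and 332 CPM in Asgr1-/- mice. Its groups were apart, with WT liver 3 close to the Asgr1-/- livers, at 0.88 on the log2 scale (adjusted p = 0.173 by edgeR). Fgl1, a hepatocyte acute phase gene, had 281, 441 and 374 CPM in WT mice against 231, 199 and 205 CPM in Asgr1-/- mice, with a log2 fold change at -0.79 and an adjusted p of 0.075 by edgeR. Socs3, the feedback inhibitor of STAT3 signaling, had 11.5, 18.6 and 8.94 CPM in WT mice against 5.28, 5.92 and 6.44 CPM in Asgr1-/- mice, with a log2 fold change at -1.15 and an adjusted p of 0.092 by edgeR. In both genes the groups were apart. Over the list, 5 tested genes were lower and 1 higher without overlap, where 10.9% of all tested genes were lower and 10.9% higher in this way. DESeq2 gave adjusted p of 0.00042 for Fgl1 and 0.0031 for Socs3, and edgeR gave 0.021 for Fgl1 without WT liver 1 and 0.013 for Socs3 without WT liver 3. Leaving out WT liver 2 instead gave 0.196 for Fgl1 and 0.229 for Socs3.

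The serum amyloid genes Saa1 and Saa2, acute phase proteins, had log2 fold changes of -1.66 and -1.69 (adjusted p = 0.126 and 0.163 from edgeR). WT liver 2 stood above the rest for both, with 147 CPM of Saa1 against 35.6 and 60.1 CPM in the other WT livers. Asgr1-/- livers had between 22.6 and 31.1 CPM of Saa1. Without WT liver 2 the log2 fold changes were -0.90 for Saa1 and -0.81 for Saa2, with adjusted p of 0.237 and 0.319 in edgeR. Without WT liver 1 the adjusted p was 0.042 for Saa1 and 0.045 for Saa2. Saa1 and Saa2 are near-identical neighbours, so reads may be split between them.

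**Figure D3:**
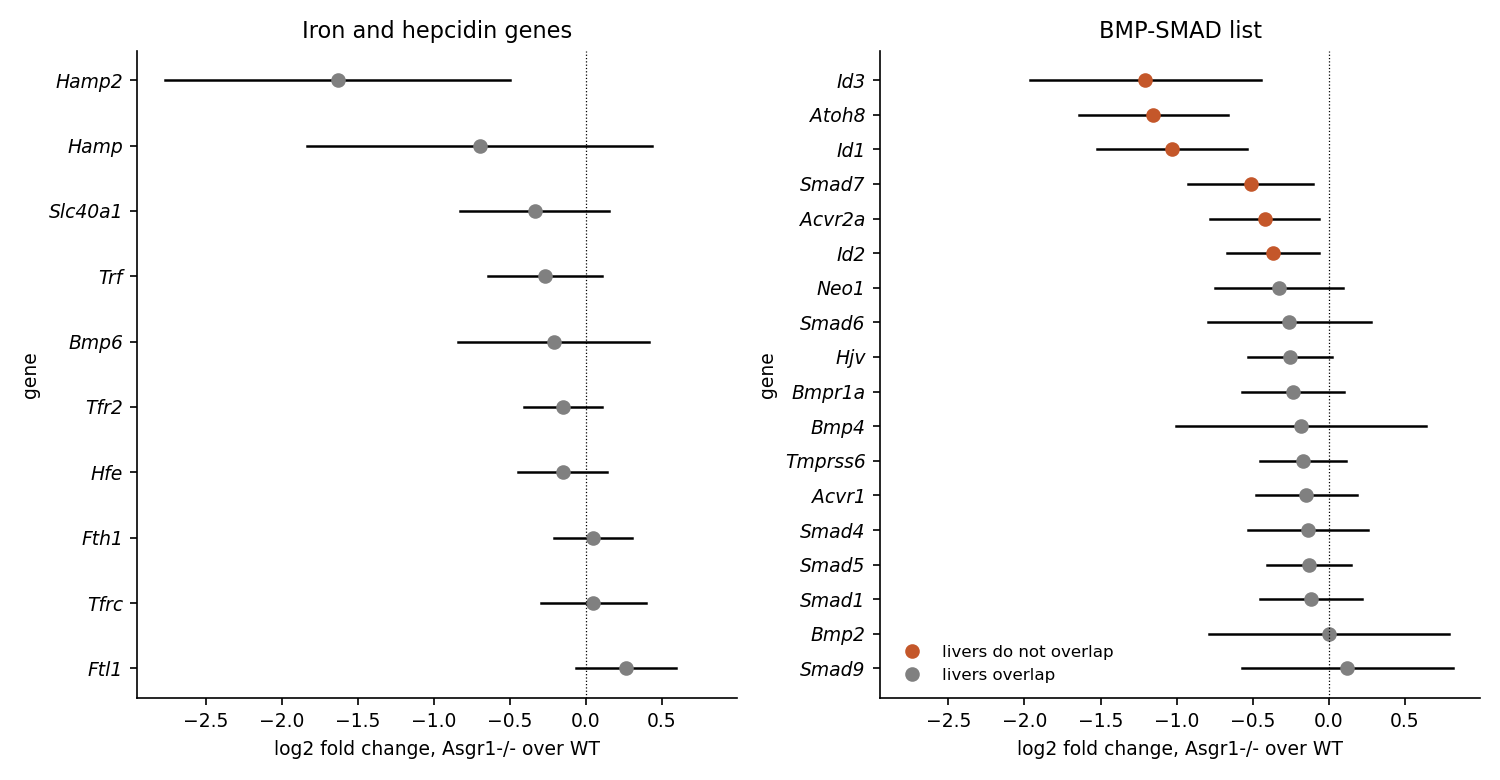
Log2 fold change, Asgr1-/- over WT, with its 95% interval from edgeR for the 10 iron and hepcidin genes (left) and the 18 tested genes of the BMP-SMAD list (right). Orange points mark genes whose livers do not overlap between genotypes; there are 6 on the right, all lower, and 0 on the left.

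Trf (ENSMUSG00000032554, chr9:103204001-103230444) encodes transferrin, the plasma carrier of iron made by hepatocytes. It had 11063, 16344 and 16448 CPM in WT mice against 11403, 13000 and 11971 CPM in Asgr1-/- mice, or between 1.07% and 1.62% of all counts. WT liver 1 was the lowest of the 6 livers. Trf differed by -0.27 on the log2 scale (95% interval -0.65 to 0.11, adjusted p = 0.472 from edgeR), and without WT liver 1 it was -0.44 with an adjusted p of 0.123.

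Tfrc (ENSMUSG00000022797, chr16:32608920-32632794) encodes transferrin receptor 1, which takes up iron-loaded transferrin. It had 44.9, 56.3 and 48.6 CPM in WT mice against 62.7, 48.4 and 44.0 CPM in Asgr1-/- mice. Asgr1-/- livers held both the highest and the lowest value. Tfrc differed by 0.050 on the log2 scale (95% interval -0.29 to 0.39, adjusted p = 0.906 from edgeR), and it was -0.11 without Asgr1-/- liver 1 and -0.021 without WT liver 1.

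Slc40a1 (ENSMUSG00000025993, chr1:45908068-45926523) encodes ferroportin, which is abundant in Kupffer cells as well as present in hepatocytes. It had 54.8, 105 and 79.2 CPM in WT mice against 74.2, 54.7 and 60.4 CPM in Asgr1-/- mice. The WT livers alone covered a 1.92-fold range that took in nearly all Asgr1-/- values. Slc40a1 differed by -0.34 on the log2 scale (95% interval -0.83 to 0.15, adjusted p = 0.493 from edgeR), and without WT liver 2 it was -0.086. Its r with the summed Kupffer markers was 0.48 over the 6 livers, and WT liver 2, the highest for Slc40a1, had 238 CPM of Kupffer markers against 776 CPM in WT liver 3. None of the 12 Kupffer markers was at 0 in any liver, and their part in the result was not tested.

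**Figure D4:**
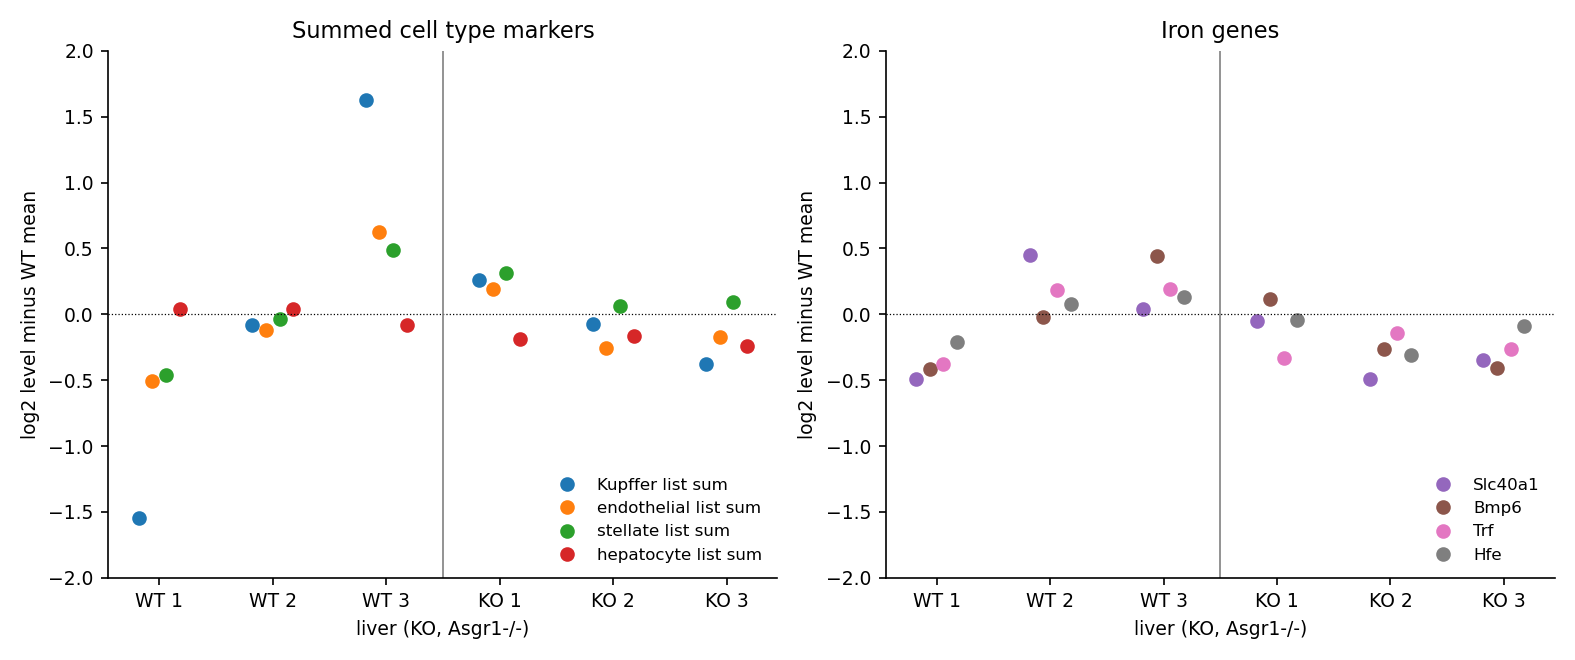
Left, summed CPM of Kupffer (12 genes), endothelial (12), stellate (7) and hepatocyte (5) markers in each liver; right, CPM of Slc40a1, Bmp6, Trf and Hfe; all as log2 minus the mean of the WT livers. The Kupffer sum runs from 86.3 CPM in WT liver 1 to 776 CPM in WT liver 3, and Bmp6 is likewise lowest in WT liver 1 and highest in WT liver 3.

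The iron transport list held 14 genes, of which 11 were tested and 0 called by edgeR. Cp, ceruloplasmin, the ferroxidase that works beside ferroportin, had 636, 745 and 620 CPM in WT mice against 527, 558 and 520 CPM in Asgr1-/- mice. Its groups were apart at -0.32 on the log2 scale (adjusted p = 0.231 by edgeR), and it was the 1 gene of the list with an unadjusted p under 0.05. Of all tested genes, 8.2% were lower at this level and 10.9% were lower without overlap, so 1 such gene among 11 is near that share. Slc25a37 (mitoferrin 1, a mitochondrial iron importer) was at 0.25, Lrp1 (the receptor that takes up heme-hemopexin) at -0.27 and Scara5 (a ferritin receptor) at 0.52 on the log2 scale. Slc25a37 was higher in every Asgr1-/- liver than in every WT liver, as were 10.9% of all tested genes, while Lrp1 and Scara5 overlapped. For Scara5 the adjusted p was 0.401 in edgeR, and leaving out 1 liver gave log2 fold changes from 0.32 without WT liver 2 (adjusted p = 0.690) to 0.91 without WT liver 3 (adjusted p = 0.048). The median of the list was 0.060.

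Fth1 (ENSMUSG00000024661, chr19:9980598-9985098) encodes the ferritin heavy chain, which oxidises iron for storage. It had 1877, 1880 and 2118 CPM in WT mice against 1966, 1922 and 2170 CPM in Asgr1-/- mice. The ranges nearly coincided, and the log2 fold change was 0.044 (95% interval -0.21 to 0.30, adjusted p = 0.885 from edgeR). This was among the tightest intervals of the 10 genes, from 0.863-fold to 1.23-fold.

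Ftl1 (ENSMUSG00000050708, chr7:45457944-45459884), the ferritin light chain, had 2982, 2761 and 3218 CPM in WT mice and 3134, 3314 and 4313 CPM in Asgr1-/- mice. Asgr1-/- liver 3 was highest, and Asgr1-/- liver 1 was below WT liver 3. Ftl1 differed by 0.26 on the log2 scale (95% interval -0.065 to 0.59, adjusted p = 0.418 from edgeR). The FPKM ratio of Ftl1 to Fth1 was 4.11, 3.80 and 3.93 in WT mice against 4.13, 4.46 and 5.15 in Asgr1-/- mice, chosen for display after the values were seen. The size of this ratio depends on the exonic sizes behind FPKM, 1340 bases for Ftl1 and 3469 for Fth1.

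The table lists 14 other rows whose symbols start with Fth or Ftl, and 10 of them had no count in any liver. Ftl1-ps1, a processed copy of Ftl1, had 799 to 1222 counts per liver, which was 1.21% to 1.53% of the counts of Ftl1, and reads may be split between them. The other copies had at most 9 counts in a liver.

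The iron sensing list held 12 genes, of which 11 were tested and 0 called by edgeR, with a median log2 fold change of 0.051. Pcbp1, the chaperone that delivers iron to ferritin, had 217, 202 and 253 CPM in WT mice against 299, 308 and 319 CPM in Asgr1-/- mice. The groups were apart, and the log2 fold change was 0.46 (adjusted p = 0.116 from edgeR). Herc2, the ubiquitin ligase that targets the ferritinophagy receptor, was at -0.34, Ireb2 (iron regulatory protein 2) at -0.24 and Zfp36 (tristetraprolin, which destabilises mRNAs) at 0.20 on the log2 scale. Livers did not overlap between genotypes for Herc2 and Zfp36 and did for Ireb2. Of all tested genes, 10.9% were higher and 10.9% lower without overlap.

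The heme list held 16 genes, of which 15 were tested and 0 called by edgeR. At an unadjusted p under 0.05, 4 were higher and 0 lower, where 7.29% of all tested genes were higher at this level, and the median over the list lay at 0.059. Blvrb, biliverdin reductase B, had 292, 243 and 245 CPM in WT mice against 352, 342 and 426 CPM in Asgr1-/- mice, with a log2 fold change at 0.52 and an adjusted p of 0.116 by edgeR. Alad, an enzyme of early heme synthesis, had a log2 fold change of 0.31 (adjusted p = 0.280 by edgeR) and Slc48a1, a heme transporter, of 0.39 (adjusted p = 0.216 by edgeR). In these 3 genes, named for their small p, every Asgr1-/- liver was above every WT liver. Over the list, 4 tested genes were higher and 0 lower without overlap. Of all tested genes, 10.9% were higher and 10.9% lower in this way. Hmox1, the inducible heme oxygenase, which is abundant in Kupffer cells, was named after its values were seen, because it ranged from 6.79 CPM in WT liver 1 to 52.0 CPM in WT liver 3, the livers with the lowest and highest Kupffer marker sums.

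The 5 plasma scavengers of heme and hemoglobin and their receptors were all tested and 0 were called by edgeR, with log2 fold changes between -0.45 and -0.075. Hp (haptoglobin) was at -0.16, Hpx (hemopexin) at -0.12 and Cd163 (the macrophage receptor of hemoglobin-haptoglobin) at -0.45. Hp was lower in every Asgr1-/- liver than in every WT liver, as were 10.9% of all tested genes, while Hpx and Cd163 overlapped. Cd163 was lowest of all livers in WT liver 1, at 2.31 CPM, and highest in WT liver 3. Its log2 fold change was 0.66 without WT liver 3 and -0.94 without WT liver 1, so its direction rests on 1 liver. Of 8 erythroid markers, 5 were tested and 0 called. Alas2, the erythroid enzyme that starts heme synthesis, was at -0.38 (adjusted p = 0.292 from edgeR). The summed erythroid level was between 199 and 307 CPM in WT and between 184 and 287 CPM in Asgr1-/- livers, and the part of blood RNA in these results was not tested.

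Compared per length as FPKM, transferrin mRNA was the highest of the 10 genes, at 4273 ± 917 FPKM (SD, n = 3 mice) in WT and 3679 ± 227 FPKM (SD, n = 3 mice) in Asgr1-/- livers. Hamp followed in WT at 2257 ± 143 FPKM (SD, n = 3 mice) and Ftl1 at 2163 ± 192 FPKM (SD, n = 3 mice), which did not differ beyond their spread on this measure. In Asgr1-/- livers Ftl1 was at 2694 ± 447 FPKM (SD, n = 3 mice) and lay above Hamp in every liver, at 1447 ± 973 FPKM (SD, n = 3 mice). Among all genes of the table, Trf ranked 16, Hamp 28 and Ftl1 29 by mean WT FPKM.

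Below these came Fth1 at 548 ± 45.8 FPKM and Tfr2 at 155 ± 12.9 FPKM in WT (SD, n = 3 mice). On this measure both were apart from their neighbours in both genotypes. Hfe, Hamp2, Slc40a1 and Tfrc followed at 13.3, 11.5, 8.59 and 7.83 FPKM on average in WT, and each overlapped the next. Among Asgr1-/- livers, Hamp2 at 3.84 ± 1.26 FPKM (SD, n = 3 mice) was below Hfe, Slc40a1 and Tfrc. Bmp6 was lowest, at 1.10 ± 0.35 FPKM in WT and 0.987 ± 0.208 FPKM in Asgr1-/- livers (SD, n = 3 mice), the gene nearest to the filter on low values. Tfr2 exceeded Tfrc in FPKM by 19.1-fold to 20.9-fold in WT livers and by 13.9-fold to 21.6-fold in Asgr1-/- livers. The order of the genes depends on the exonic sizes behind FPKM. These were 3469 bases for Fth1, 9000 for Slc40a1, 3572 for Hfe and 410 for Hamp. A GENCODE transcript of each was 929, 3370, 516 and 410 bases long, in that order. Whether the order of the genes holds per transcript length was not tested.

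**Figure D5:**
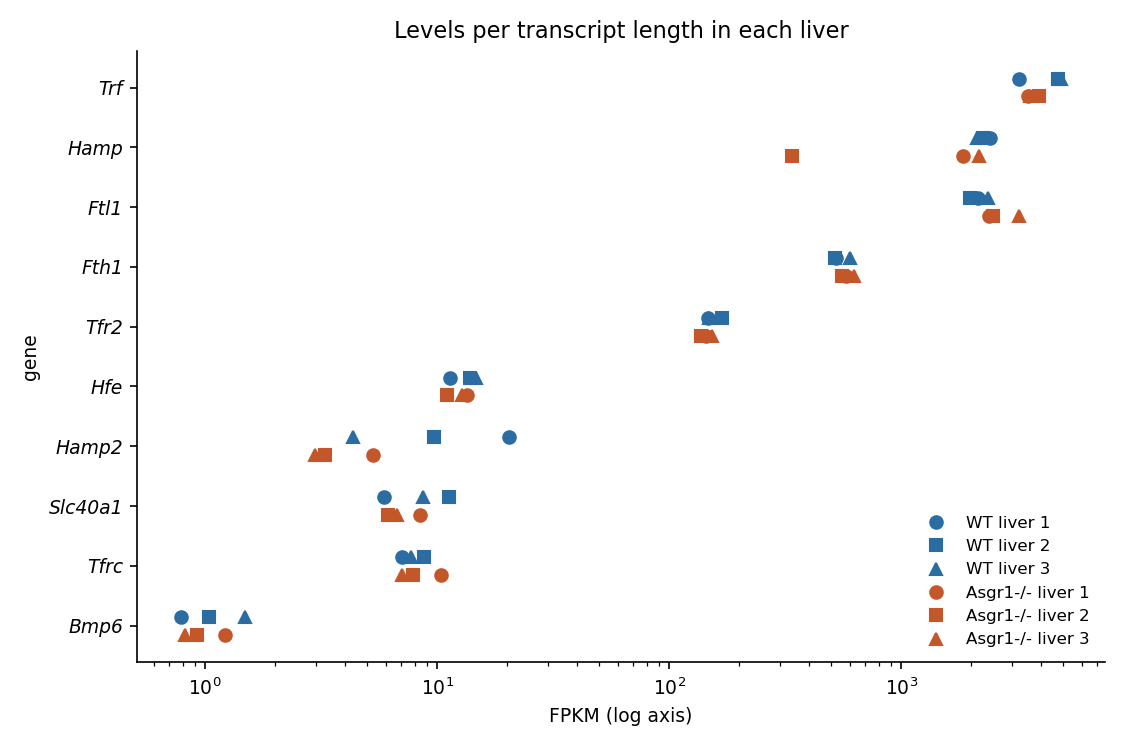
FPKM of each of the 10 genes in each liver on a log axis, ordered by the mean of the WT livers (WT above, Asgr1-/- below each gene's line). Transferrin is at the top with 4273 FPKM on average in WT and Bmp6 at the bottom with 1.10 FPKM, and Hamp in Asgr1-/- liver 2 lies well to the left of the other Hamp points.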

How the data were processed

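RNA-Seq was performed on livers of 3 WT and 3 Asgr1-/- mice, 1 library per mouse. The deposited table gives raw counts and FPKM per gene, both made by the authors' sequencing provider, and FPKM recomputed from counts and exonic size lay within 0.005. The submitters' processing notes name GRCm38 and DESeq2 1.6.3. For the aligner, the counter and the strand setting the entry is: not given in the sources used here. All 10 genes had the same coordinates in GENCODE M21.

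Counts were tested with edgeR 4.0.16 (TMM, quasi-likelihood test, two-sided, mean FPKM of at least 1, Benjamini-Hochberg adjustment), after the thresholds of the study (fold change above 1.5, adjusted p under 0.05). Alternatives were other filters and scalings, DESeq2 1.42.0, limma 3.58.1 on log2(FPKM + 0.1) or log2(FPKM + 1), a replicate block and leaving out each liver, in R 4.3.3 and Python 3.11.15. Scripts were tested on simulated data. Log2 values per liver used log2(CPM + 0.1).

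The text names all 10 genes, up to 4 genes with the smallest p per pathway list, 7 BMP-SMAD genes whatever their p, Alas2 and the 5 genes most correlated with Hamp. A gene that this rule names is not reported here. Genes and lists were chosen with earlier results of these data known. Column descriptions from gene ontology in the table were not used.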

Additional observations from a re-analysis of the deposited data

How the results depend on the processing

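The 30 genes called by edgeR over all genes became 465 without a filter on FPKM, 70 with a mean FPKM of at least 0.1, 80 with robust estimation, 248 with DESeq2, and 11 and 16 with limma at pseudocounts of 0.1 and 1. Leaving out 1 liver gave 3 to 288 calls, the 288 arising when WT liver 3 was dropped and the 3 when Asgr1-/- liver 1 or 3 was dropped. The count among the 10 iron and hepcidin genes was 0, and became 2 without a filter (Hamp and Hamp2) and 1 with DESeq2 (Hamp2). Leaving out 1 liver gave 0 to 1, the call being Hamp2 without WT liver 3. Leaving out single livers turned the direction of 7 genes, none of which was called: Tfrc ranged from -0.11 to 0.16, Fth1 from -0.0034 to 0.10, Bmp6 from -0.40 to 0.041, Smad6 from -0.45 to 0.0365, Bmp2 from -0.41 to 0.31, Hpx from -0.29 to 0.054 and Cd163 from -0.94 to 0.66 on the log2 scale. Limma at a pseudocount of 0.1 turned Cd163 to 0.046. The cause was not tested. For Hamp the log2 fold change was between -1.11 and -0.22 and for Hamp2 between -2.02 and -0.92 over 17 alternatives. Over the 38 genes of the naming rule, 610 of 646 values kept direction and call.

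Deviations from group means correlated at -0.14, 0.039 and -0.034 for same-numbered livers, which share only a number. With the replicate block 23 genes were called and 0 of the 10 genes. The Hamp log2 fold change was -1.03, Bmp2 turned to -0.047, and Atoh8 had an adjusted p of 0.032 from edgeR. The low counts of Bmp6 and Hamp2 limit what these libraries can show for them.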
